A study of Arabidopsis thaliana with 10 samples.

Results

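The genes described here encode the enzymes of the main route from tryptophan to auxin that are discussed for the endosperm of *Arabidopsis thaliana*. They were taken as a list of loci for their known role, with earlier results of these data known, and make up 5 of the 33602 genes in the table: *TAA1* (*WEI8*, AT1G70560), *TAR1* (AT1G23320), *TAR2* (AT4G24670), *YUC10* (AT1G48910) and *YUC11* (AT1G21430). All 5 were above 0 in enough libraries to be tested. Seeds were harvested at 6 days after pollination (DAP) from 20 siliques per library, with 2 libraries in each of 5 groups. Every seed had a wild-type L*er* mother and differed by its pollen parent. The pollen came from *adm-2 osd1* (3n *adm*), *suvh7-1 osd1* (3n *suvh7*), *peg2 osd1* (3n *peg2*), *osd1* (3n) or wild-type Col (2n). The *osd1* mutant forms unreduced pollen, so the first 4 groups are triploid seeds and the Col cross gives diploid seeds. All pollen parents were in the Col background, into which *osd1* had been backcrossed from Nossen. The mutated alleles reached the seed through pollen only, and the maternal copies of *OSD1*, *ADM*, *SUVH7* and *PEG2* were wild type in every group. *suvh7-1* and *peg2* are T-DNA insertion alleles, and each mutated gene is represented by 1 allele.

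Auxin (indole-3-acetic acid) is made in a pair of steps. Tryptophan aminotransferases of the TAA1/TAR family convert tryptophan to indole-3-pyruvate, and flavin monooxygenases of the YUCCA (YUC) family convert indole-3-pyruvate to auxin. In *Arabidopsis*, auxin production starts in the endosperm after fertilization, and *YUC10* is a paternally expressed imprinted gene (*PEG*) of this tissue. The endosperm begins as a syncytium and later forms cell walls, and this cellularization is delayed or fails in triploid seeds with an extra paternal genome. The libraries were made from whole seeds, so the measurements do not say in which seed tissue a transcript was present, and fewer cells of a type cannot be told apart from less RNA per cell.

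Of the 5 genes, 4 lie on chromosome 1 (TAIR10.1). *TAA1* spans bases 26604855 to 26607652 on the plus strand in 5 exons. *TAR1* spans bases 8273423 to 8275350 on the minus strand, also in 5 exons, and *YUC10* spans bases 18091681 to 18093878 on the plus strand in 4 exons. *YUC11* spans bases 7500845 to 7502186 on the plus strand in 3 exons. *TAR2* lies on chromosome 4 from base 12727531 to base 12731331 on the minus strand, with 2 annotated transcripts. The proteins have 391 (*TAA1*), 388 (*TAR1*), 440 (*TAR2*), 383 (*YUC10*) and 391 (*YUC11*) amino acids. The transcripts of *TAA1* and *TAR1* are 75.6% identical over 1142 aligned bases, and each is the nearest transcript of the other. *YUC10* matched AT1G48912 at 93.9% over 147 bases, and that locus is listed at an RPKM of 0 in every library. The last 105 bases of *YUC11* overlap AT1G21440, a gene on the opposite strand with an RPKM of 24.6 to 35.7. The strand setting of the counting is not given in the sources used here, and without strand reads of the overlap cannot be told apart.

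The sequences around the annotated start of *TAR1*, *YUC10* and *YUC11* are shown because these 3 genes were higher in triploid than in diploid seeds in the comparison that follows. Each is the RefSeq sequence of TAIR10.1 from 250 bases before to 50 bases after the annotated start, written 5′ to 3′ on the strand of the gene. Capitals mark the motif TATAAA where present and the start codon, which opens the annotated model of these 3 genes.
*TAR1* (chr1:8275301-8275600, minus strand): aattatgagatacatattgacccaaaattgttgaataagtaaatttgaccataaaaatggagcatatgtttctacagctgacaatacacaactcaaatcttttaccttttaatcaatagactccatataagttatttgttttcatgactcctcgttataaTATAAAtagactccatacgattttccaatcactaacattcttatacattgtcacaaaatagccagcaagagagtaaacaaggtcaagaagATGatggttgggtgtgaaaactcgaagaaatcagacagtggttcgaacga
*YUC10* (chr1:18091431-18091730, plus strand): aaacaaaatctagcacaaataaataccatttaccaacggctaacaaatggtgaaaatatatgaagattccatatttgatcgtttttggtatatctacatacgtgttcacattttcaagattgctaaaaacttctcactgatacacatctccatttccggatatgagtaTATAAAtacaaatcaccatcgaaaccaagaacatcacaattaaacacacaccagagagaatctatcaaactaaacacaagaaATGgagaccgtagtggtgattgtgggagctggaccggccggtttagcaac
*YUC11* (chr1:7500595-7500894, plus strand): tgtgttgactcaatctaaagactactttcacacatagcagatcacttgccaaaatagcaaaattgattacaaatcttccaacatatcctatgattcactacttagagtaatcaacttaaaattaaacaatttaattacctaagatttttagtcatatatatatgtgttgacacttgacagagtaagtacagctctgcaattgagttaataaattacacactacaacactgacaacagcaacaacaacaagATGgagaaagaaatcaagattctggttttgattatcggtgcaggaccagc

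Motifs were searched on both strands of these windows, and no match overlapped one of another motif. The motif TATAAA was found 82 bases before the start of *YUC10* and 90 bases before that of *TAR1*. It was also found 35 bases before the start of *TAA1* and in 52.1% of 27443 windows of the same kind, and it was not found in the windows of *YUC11* and *TAR2*. The letters TGTCTC, known as an auxin response element, were found only in *TAR2*, from base 17 of the transcript, against 14.2% of all windows. The CArG box, the motif bound by many MADS-box proteins, was found in none of the 5 windows and in 3.05% of all windows. The letters CATGCA, the core of the RY repeat of seed genes, were likewise found in none of the 5 and in 9.72% of all windows.

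Depth was recovered from the RPKM values themselves. RPKM is the number of reads scaled to gene length and library size, so low values step by the worth of a single read. From these steps the libraries held about 53600000 to 70700000 reads. For each of the 5 genes the length that brought its values closest to whole reads was chosen. With it the values were whole in all 10 libraries within 0.02 reads, which is no separate check. The chosen lengths were shorter than the longest annotated transcript for *TAA1* (1399 and 1548 bases), *TAR2* (1701 and 2033) and *YUC10* (1152 and 1256). The transcripts of the mutated genes were lower in the groups labelled with the mutation. *ADM* averaged an RPKM of 0.244 in 3n *adm* and 3.21 in 3n seeds, and *SUVH7* 0.798 in 3n *suvh7* and 3.12 in 3n seeds. *PEG2* averaged 0.160 in 3n *peg2* and 3.82 in 3n seeds, and *OSD1* 1.27 to 3.15 in the triploid groups and 7.92 in 2n seeds. For *ADM* and *PEG2* such falls were not specific to the label. *ADM* was also at 0.732 in 3n *suvh7*, and at 2.53 in 3n *peg2*. *PEG2* was also at 1.12 in 3n *adm* and 0.626 in 3n *suvh7*. *SUVH7* stayed at 3.18 in 3n *adm* and 3.06 in 3n *peg2*. In 2n seeds *ADM* was at 0.124, *SUVH7* at 0.110 and *PEG2* at 0.00754. The 2 libraries of a group were harvested in duplicate from the same cross. Whether they came from separate plants is not given in the sources used here, so p-values measure the spread between these pools.

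To ask how the auxin route differed between triploid and diploid seeds, 3n seeds were compared with 2n seeds. *TAR1*, *YUC10* and *YUC11* were higher in 3n seeds, *TAA1* was lower, and *TAR2* did not pass the test. Thus 3 of the 5 genes rose and 1 fell at an adjusted p under 0.05, while 19.5% of all 26601 genes tested were called higher and 25.2% lower in the same comparison. Genes were tested with limma on log2(RPKM + 0.1) with Benjamini-Hochberg adjustment over all genes, and each fold change is a difference of group means on that scale.

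*TAR1*, an aminotransferase of the first step, had an RPKM of 7.04 and 9.71 in 3n seeds, against 0.0242 and 0 in 2n seeds. The gene was barely detected in diploid seeds at 6 DAP, where 2 reads were found in all. The log2 fold change was 6.23 (SE 0.22, adjusted p = 3.4e-07). This value depends on the 0.1 added, and ran between 3.20 with 1 added and 8.81 with 0.01 added. Counted as read pairs, 590 pairs in 3n seeds stood against 1 pair in 2n seeds, a ratio per sequenced read of 675 with an exact 95% interval of 121 to 26691. Such intervals cover counting error only, since reads from PCR are not independent molecules.

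*YUC10*, a monooxygenase of the second step, had an RPKM of 11.2 and 12.7 in 3n seeds, against 2.26 and 2.12 in 2n seeds. Both 3n libraries lay far above both 2n libraries, and 2n seeds still held 343 reads of the gene. The log2 fold change was 2.40 (SE 0.14, adjusted p = 4.5e-06), a fold of 5.27. *YUC11*, of the same family, was measured from few reads, with an RPKM of 0.270 and 0.625 in 3n seeds, against 0.0481 and 0.0261 in 2n seeds. The groups did not overlap, but the 3n libraries also lay far apart from each other. The log2 fold change was 1.92 (SE 0.37, adjusted p = 0.0032). In read pairs, 32 in 3n seeds stood against 3 in 2n seeds, a ratio of 12.2 with a 95% interval of 3.82 to 62.2.

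*TAA1*, the founding member of the aminotransferase family, had an RPKM of 5.08 and 3.75 in 3n seeds, against 12.0 and 9.36 in 2n seeds. It had the highest mean of the 5 genes in diploid seeds and was lower in both 3n libraries than in either 2n library. The log2 fold change was -1.26 (SE 0.20, adjusted p = 0.0012). *TAR2*, the third enzyme of the first step, had an RPKM of 8.30 and 11.9 in 3n seeds, against 9.07 and 9.15 in 2n seeds. Its 2n values lay between those of the 3n libraries, and the log2 fold change was 0.12 with a 95% interval of -0.31 to 0.55 (SE 0.19, adjusted p = 0.64). The 4 calls held when any 1 of the 10 libraries was left out.

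**Figure D1:**
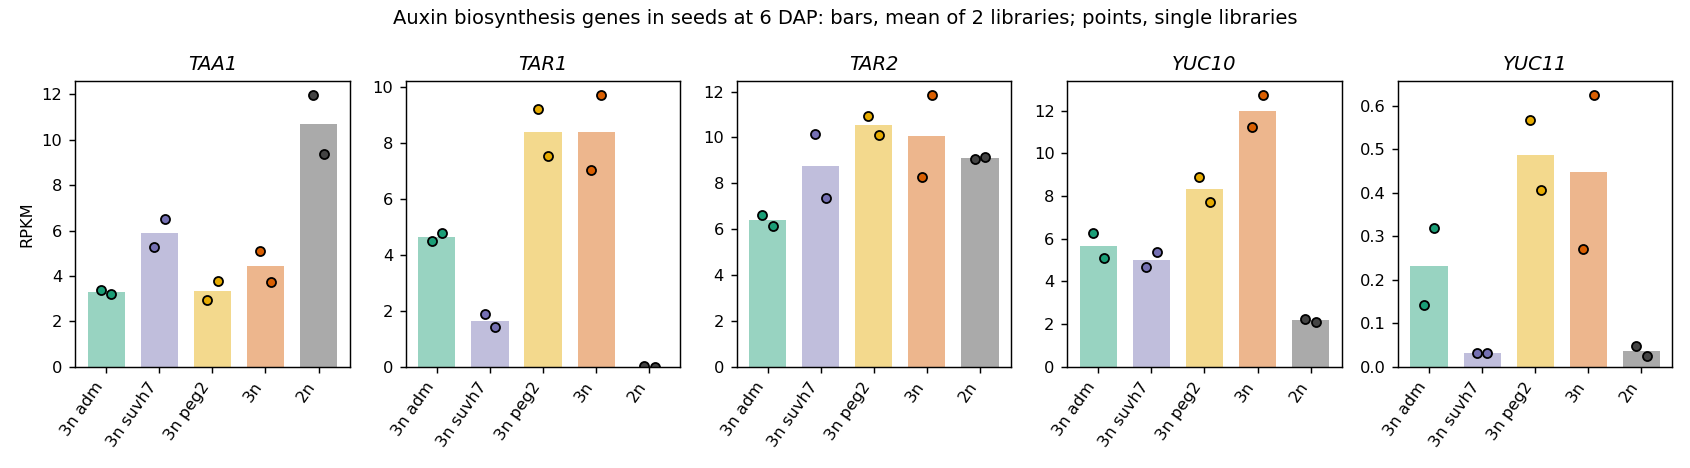
RPKM (y axis, a separate scale for each gene) of the 5 auxin biosynthesis genes in seeds at 6 DAP, by group on the x axis, with bars for the mean of 2 libraries and points for single libraries. *TAR1* lies between 1.41 and 9.71 in the triploid groups and at 0.0242 or below in 2n seeds, *YUC10* is highest in 3n seeds, *TAA1* is highest in 2n seeds, and *TAR2* lies between 6.16 and 11.9 over all libraries.

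The mutants were then compared with 3n seeds, to ask whether loss of the paternal copy of *ADM*, *SUVH7* or *PEG2* changed these genes. In 3n *suvh7* seeds 3 of the 5 genes fell, namely *TAR1*, *YUC10* and *YUC11*, and none rose, while 4.27% of all genes were called lower and 4.87% higher. *TAR1* had an RPKM of 1.88 and 1.41 in 3n *suvh7* seeds, against 7.04 and 9.71 in 3n seeds. Its log2 fold change was -2.28 (SE 0.22, adjusted p = 0.0011), which leaves 0.207 of the 3n level. *YUC10* had an RPKM of 4.67 and 5.36 in 3n *suvh7* seeds, against 11.2 and 12.7 in 3n seeds. For *YUC10* the log2 fold change was -1.24 (SE 0.14, adjusted p = 0.0018). *YUC11* was down to 4 reads in all, with an RPKM of 0.0310 and 0.0308 in 3n *suvh7* seeds, against 0.270 and 0.625 in 3n seeds. The log2 fold change of *YUC11* was -1.98 (SE 0.37, adjusted p = 0.013), and in read pairs 2 stood against 32, a ratio of 0.0675 with a 95% interval of 0.00784 to 0.265.

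The other aminotransferases did not pass in 3n *suvh7* seeds. *TAA1* had an RPKM of 5.30 and 6.50 in 3n *suvh7* seeds, against 5.08 and 3.75 in 3n seeds, a log2 fold change of 0.42 (adjusted p = 0.27). *TAR2* had an RPKM of 10.2 and 7.38 in 3n *suvh7* seeds, against 8.30 and 11.9 in 3n seeds, a log2 fold change of -0.20 (adjusted p = 0.60). Without replicate 2 of 3n, or without either 3n *suvh7* library, *YUC11* no longer passed, at adjusted p of 0.065, 0.063 and 0.068. In a fit of 3n *suvh7* and 3n alone none of the 3 genes passed, at adjusted p of 0.098 for *TAR1*, 0.093 for *YUC10* and 0.16 for *YUC11*, and that fit called 0 of all genes tested.

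In 3n *adm* seeds 1 of the 5 genes, *YUC10*, fell and none rose, while 1.85% of all genes were called lower and 8.12% higher. *YUC10* had an RPKM of 6.25 and 5.08 in 3n *adm* seeds, against 11.2 and 12.7 in 3n seeds. Its log2 fold change was -1.07 (SE 0.14, adjusted p = 0.0050), and every 3n *adm* library lay below both 3n libraries. *TAR1* had an RPKM of 4.49 and 4.79 in 3n *adm* seeds, against 7.04 and 9.71 in 3n seeds, a log2 fold change of -0.82 that missed the threshold (SE 0.22, adjusted p = 0.056). *TAR2* had an RPKM of 6.63 and 6.16 in 3n *adm* seeds, against 8.30 and 11.9 in 3n seeds, a log2 fold change of -0.63 (SE 0.19, adjusted p = 0.073). For both, the 3n *adm* libraries lay below the 3n libraries. *TAA1* had an RPKM of 3.40 and 3.20 in 3n *adm* seeds, against 5.08 and 3.75 in 3n seeds, with a log2 fold change of -0.40 (adjusted p = 0.24) and no overlap. *YUC11* overlapped between the groups, with an RPKM of 0.141 and 0.320 in 3n *adm* seeds and a log2 fold change of -0.70 against 3n seeds (adjusted p = 0.26).

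The calls in 3n *adm* seeds moved with the scaling. With libraries rescaled by median-of-ratios size factors, the split over all genes became 1355 higher and 1337 lower, against 2161 and 493 as deposited, and *TAR1* (adjusted p = 0.032) and *TAR2* (adjusted p = 0.032) also passed as lower. *TAR2* likewise passed without replicate 1 of 3n (adjusted p = 0.037), and in a fit of 3n *adm* and 3n alone *YUC10* no longer passed (adjusted p = 0.083), nor did any of the other genes tested.

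In 3n *peg2* seeds none of the 5 genes (0) was called in either direction by limma, while 0.0865% of all genes were called higher and 0.154% lower. At an unadjusted p under 0.05, 1 of the 5, *YUC10*, was lower. The rank product also called 0 of the 5, where it called 13 higher and 72 lower of all genes tested. *YUC10* had an RPKM of 8.90 and 7.74 in 3n *peg2* seeds, against 11.2 and 12.7 in 3n seeds. The groups did not overlap, and the log2 fold change was -0.52 with a 95% interval of -0.84 to -0.20 before adjustment (SE 0.14, adjusted p = 0.27). *TAR1* had an RPKM of 9.21 and 7.54 in 3n *peg2* seeds, within the 3n values of 7.04 and 9.71, and a log2 fold change of 0.01 with a 95% interval of -0.50 to 0.53. *TAR2* had an RPKM of 10.9 and 10.1 in 3n *peg2* seeds, again within the 3n values, and a log2 fold change of 0.08 with a 95% interval of -0.35 to 0.52. *TAA1* had an RPKM of 2.93 and 3.78 in 3n *peg2* seeds and *YUC11* of 0.566 and 0.405, and both overlapped with 3n seeds. Over all genes, 883 were higher and 1413 lower at an unadjusted p under 0.05, against 23 and 41 after adjustment.

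**Figure D2:**
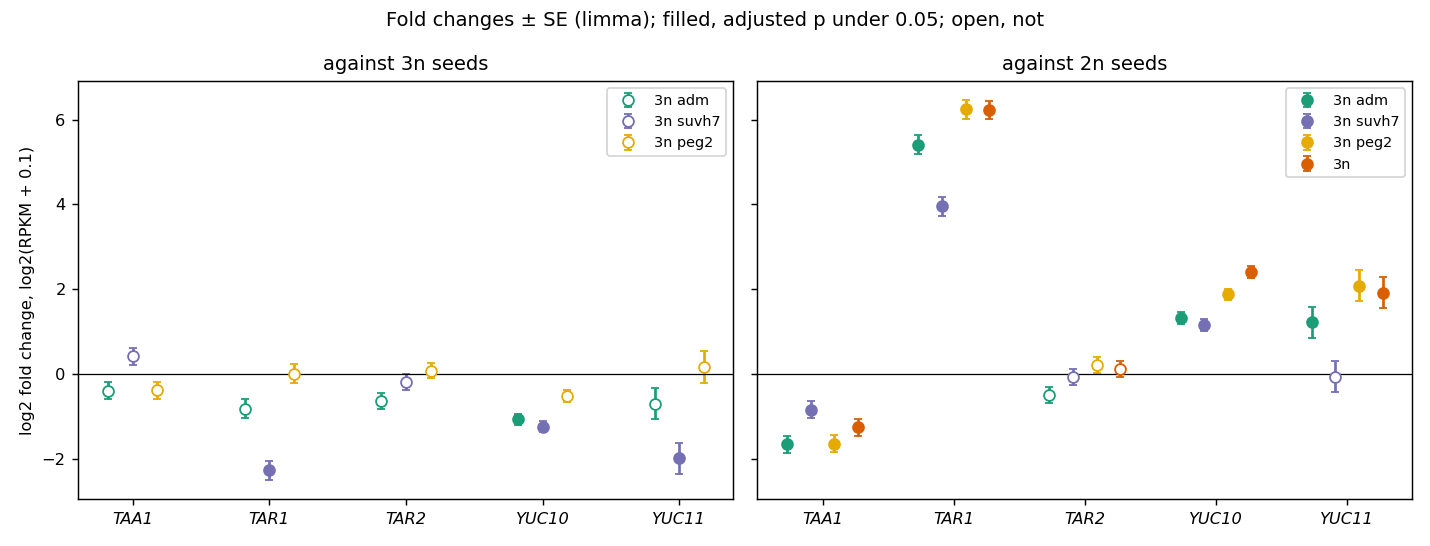
Log2 fold change on the log2(RPKM + 0.1) scale (y axis) of each gene (x axis) against 3n seeds (left) and against 2n seeds (right), with bars for the standard error of limma and filled points for an adjusted p under 0.05. Against 3n seeds the filled points are *TAR1*, *YUC10* and *YUC11* in 3n *suvh7* and *YUC10* in 3n *adm*, and against 2n seeds *TAR1* runs from 3.96 in 3n *suvh7* to 6.24 in 3n *peg2*.

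Each mutant group was also set against 2n seeds, which shows how far its levels stood from those of diploid seeds. These comparisons share the 2n libraries with that of 3n seeds, and those above share the 3n libraries. In 3n *adm* seeds 3 of the 5 genes were higher and 1 was lower than in 2n seeds (22.7% of all genes higher, 19.9% lower). In 3n *suvh7* seeds 2 were higher and 1 was lower (12.6% of all genes higher, 23.6% lower), and in 3n *peg2* seeds 3 were higher and 1 was lower (19.3% of all genes higher, 27.2% lower). *TAR1* remained far above 2n seeds in every mutant. Its log2 fold change against 2n seeds was 5.41 in 3n *adm*, 3.96 in 3n *suvh7* and 6.24 in 3n *peg2* (SE 0.22 each, adjusted p = 8.6e-07, 6.8e-06 and 3.6e-07). In read pairs against the 1 pair of 2n seeds, 3n *adm* had 321, 3n *suvh7* 105 and 3n *peg2* 622. The ratios were 368 (95% interval 65.5 to 14573), 130 (95% interval 22.8 to 5172) and 666 (95% interval 119 to 26364).

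*YUC10* was also above 2n seeds in every mutant, by a log2 fold change of 1.33 in 3n *adm*, 1.16 in 3n *suvh7* and 1.88 in 3n *peg2* (SE 0.14 each, adjusted p = 0.00017, 0.00043 and 1.6e-05). *YUC11* was above 2n seeds in 3n *peg2*, with a log2 fold change of 2.09 (SE 0.37, adjusted p = 0.0020), and in 3n *adm*, with one of 1.22 (adjusted p = 0.028). The second of these was lost without replicate 2 of 3n *adm* (adjusted p = 0.17) or without either 2n library (0.076 and 0.12). In 3n *suvh7* seeds *YUC11* did not pass against 2n seeds, with a log2 fold change of -0.06 and a 95% interval of -0.91 to 0.79, and 2 read pairs stood against 3.

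*TAA1* was below 2n seeds in every mutant, by a log2 fold change of -1.65 in 3n *adm*, -0.84 in 3n *suvh7* and -1.64 in 3n *peg2* (SE 0.20 each, adjusted p = 0.00037, 0.012 and 0.00026). The call in 3n *suvh7* was lost without replicate 1 of 3n *suvh7* (adjusted p = 0.079) or without replicate 1 of 2n (0.084). *TAR2* passed in none of these 3 comparisons, with log2 fold changes against 2n seeds of -0.50 in 3n *adm* (adjusted p = 0.061), -0.07 in 3n *suvh7* (0.81) and 0.21 in 3n *peg2* (0.42). *TAR2* in 3n *adm* did pass with size factors (adjusted p = 0.026) and when either 3n library (0.027 and 0.027) or either 3n *suvh7* library (0.039 and 0.039) was left out. The size factors also moved the split over all genes in 3n *suvh7* to 4694 higher and 5286 lower than in 2n seeds, against 3358 and 6290 as deposited.

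In each of the 3 comparisons between mutants, *TAR1* and *YUC11* had the largest fitted differences of the 5 genes, though not all passed the test. Between 3n *peg2* and 3n *suvh7*, 3 genes were higher and 1 was lower in 3n *peg2* (3.37% of all genes higher, 5.72% lower). *TAR1* had an RPKM of 9.21 and 7.54 in 3n *peg2* seeds, against 1.88 and 1.41 in 3n *suvh7* seeds, a log2 fold change of 2.29 (SE 0.22, adjusted p = 0.0011). *YUC11* was higher in 3n *peg2* by a log2 fold change of 2.15 (SE 0.37, adjusted p = 0.0098), from 36 against 2 read pairs, a ratio of 15.6 (95% interval 4.02 to 134). *YUC10* was higher by 0.72 (SE 0.14, adjusted p = 0.017), and *TAA1* was lower by a log2 fold change of -0.80 (SE 0.20, adjusted p = 0.047). Of the 4 calls, that of *TAR1* held without any 1 library. *YUC10* lost its call without replicate 1 of 3n *peg2* (adjusted p = 0.12) or of 3n *suvh7* (0.093), and *YUC11* without replicate 1 of 3n *peg2* (0.073) or replicate 2 of 3n *suvh7* (0.058). The call of *TAA1* was lost without any 1 library of 3n *peg2*, 3n *suvh7*, 3n *adm* or 2n, at adjusted p up to 0.24. It was also lost with the replicate block (0.075), size factors (0.065), a pseudocount of 1 (0.061) and no filter (0.054).

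Between 3n *suvh7* and 3n *adm*, *TAA1* was higher and *TAR1* lower in 3n *suvh7*, so that 1 of the 5 genes was called in each direction (1.86% of all genes higher, 10.6% lower). *TAR1* had a log2 fold change of -1.45 (SE 0.22, adjusted p = 0.012) and *TAA1* one of 0.81 (SE 0.20, adjusted p = 0.038). *YUC11* had 2 read pairs in 3n *suvh7* against 16 in 3n *adm*, a ratio of 0.135 (95% interval 0.0150 to 0.573), and a log2 fold change of -1.28 (adjusted p = 0.058). *YUC10* overlapped between these mutants, with a log2 fold change of -0.17 and a 95% interval of -0.49 to 0.15. Between 3n *peg2* and 3n *adm*, *TAR1*, *TAR2* and *YUC10* were higher in 3n *peg2*, 3 of the 5 genes, and none was lower (4.21% of all genes higher, 14.8% lower). Their log2 fold changes were 0.83 for *TAR1* (SE 0.22, adjusted p = 0.037), 0.71 for *TAR2* (SE 0.19, adjusted p = 0.036) and 0.55 for *YUC10* (SE 0.14, adjusted p = 0.031). Without either 3n *adm* library all 5 calls against 3n *adm* were lost, with adjusted p of 0.067 to 0.17. The 3 calls in 3n *peg2* were also lost without either 3n *peg2* library (0.062 to 0.18), that of *TAR2* without either 2n library (0.052 and 0.052), and that of *TAA1* in 3n *suvh7* without either 3n *suvh7* library (0.098 and 0.14). *YUC11* in 3n *suvh7* passed without either 3n library (0.033 and 0.033).

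Size factors moved the median of all genes by more than 0.1 on the log2 scale in the comparisons of 3n *suvh7* and 3n *peg2* with 3n *adm*. The medians were -0.13 in both comparisons as deposited and -0.01 in both after rescaling. All 5 calls of genes against 3n *adm* kept their direction and threshold, with log2 fold changes of 0.95 (*TAA1*) and -1.32 (*TAR1*) in 3n *suvh7*, and 0.97 (*TAR1*), 0.85 (*TAR2*) and 0.69 (*YUC10*) in 3n *peg2*. The split over all genes changed to 1687 higher and 1838 lower in 3n *suvh7*, against 496 and 2820 as deposited, and to 2886 and 2446 in 3n *peg2*, against 1120 and 3944.

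Ranked by mean RPKM, *YUC10* was highest in 3n seeds (11.98 ± 1.09, SD, n = 2), followed by 3n *peg2* (8.32 ± 0.821), 3n *adm* (5.66 ± 0.829), 3n *suvh7* (5.02 ± 0.484) and 2n seeds (2.19 ± 0.0994). Of these neighbours, 3n and 3n *peg2* did not pass a test against each other, nor did 3n *adm* and 3n *suvh7*. *TAR1* was at the same mean in 3n *peg2* (8.37 ± 1.18) and 3n seeds (8.37 ± 1.89), followed by 3n *adm* (4.64 ± 0.215), 3n *suvh7* (1.64 ± 0.329) and 2n seeds (0.0121 ± 0.0171). Only the steps from 3n *adm* to 3n *suvh7* and from 3n *suvh7* to 2n passed between neighbours. *TAA1* was lowest in 3n *adm* (3.30 ± 0.139), followed upward by 3n *peg2* (3.36 ± 0.602), 3n (4.42 ± 0.939), 3n *suvh7* (5.90 ± 0.848) and 2n seeds (10.7 ± 1.85). Among its neighbours only 3n *suvh7* and 2n passed a test.

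*TAR2* averaged 10.5 ± 0.585 in 3n *peg2*, 10.1 ± 2.52 in 3n, 8.76 ± 1.96 in 3n *suvh7* and 6.39 ± 0.328 in 3n *adm*, and 2n seeds lay between 3n and 3n *suvh7* at 9.11 ± 0.0615. No neighbours in this order passed a test. *YUC11* was low everywhere, at 0.486 ± 0.114 in 3n *peg2*, 0.447 ± 0.251 in 3n, 0.231 ± 0.126 in 3n *adm*, 0.0309 ± 0.000179 in 3n *suvh7* and 0.0371 ± 0.0156 in 2n seeds. Only 3n *adm* and 2n passed among its neighbours.

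The makeup of the genes summed for each enzyme step differed between the groups. For the first step only *TAA1*, *TAR1* and *TAR2* were summed, and shares are those within these 3 genes. AT1G34040 and AT1G34060, listed here as other genes of the TAA family, were left out. Their mean RPKM over all libraries was 8.80 and 50.8. RPKM is scaled to gene length, so levels of different genes can be added. *TAA1*, *TAR1* and *TAR2* together came to 14.3 ± 0.252 RPKM in 3n *adm*, 16.3 ± 1.44 in 3n *suvh7*, 22.3 ± 1.16 in 3n *peg2*, 22.9 ± 3.48 in 3n and 19.8 ± 1.81 in 2n seeds (SD, n = 2 each). The libraries of 3n (20.4 and 25.3) and 2n seeds (21.1 and 18.5) overlapped in this sum. Within it, *TAR1* made up 36.4% in 3n seeds and 0.0575% in 2n seeds, and *TAA1* made up 19.9% in 3n seeds and 53.7% in 2n seeds. The share of *TAR2* was 43.7% in 3n seeds and 46.2% in 2n seeds. In 3n *suvh7* seeds *TAR1* made up 10.0% and *TAA1* 36.5%.

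The 11 *YUC* genes summed to 10.9 ± 0.587 RPKM in 3n *adm*, 11.9 ± 0.546 in 3n *suvh7*, 16.3 ± 0.469 in 3n *peg2*, 18.9 ± 2.03 in 3n and 10.4 ± 1.13 in 2n seeds. *YUC10* made up 51.8% of this sum in 3n *adm*, 42.0% in 3n *suvh7*, 51.0% in 3n *peg2*, 63.4% in 3n and 21.2% in 2n seeds. *YUC4*, a family member known from embryos and floral organs, made up 3.50% in 3n seeds and 27.9% in 2n seeds. *YUC11* did not exceed 3.41% in any library. With 2 libraries per group, an exact permutation test of such a sum or share cannot go below p = 0.33, so none was run.

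**Figure D3:**
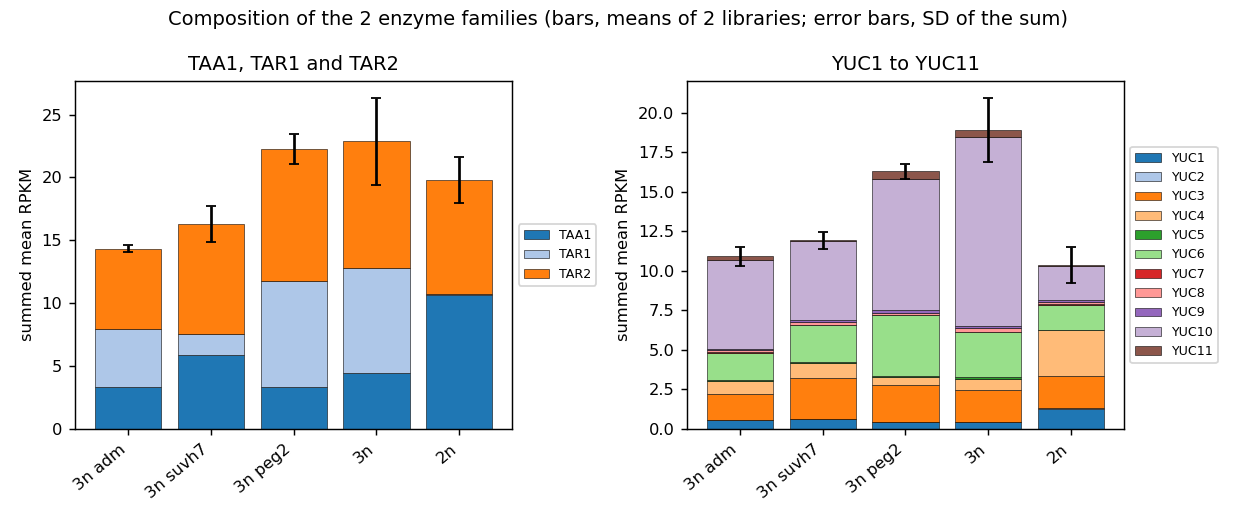
Summed mean RPKM (y axis) of *TAA1*, *TAR1* and *TAR2* (left) and of *YUC1* to *YUC11* (right) in each group (x axis), with 1 colour per gene, bars for means of 2 libraries and error bars for the SD of the sum. *TAR1* is visible in the triploid groups and not in 2n seeds, and *YUC10* takes up 63.4% of the *YUC* sum in 3n seeds and 21.2% in 2n seeds.

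The other genes of auxin metabolism and response were described from 10 lists of 127 genes, of which 125 were tested. In 3n against 2n seeds 34 of them rose, 35 fell and 56 did not pass, and their median log2 fold change was 0.01, against -0.01 over all genes, of which 19.5% were called higher and 25.2% lower. The rank product called 0 of the 125 in either direction, where it called 146 higher and 128 lower of all 26601 genes. Among the 9 other *YUC* genes 2 rose, 3 fell and 4 did not pass. *YUC4* had an RPKM of 0.658 and 0.658 in 3n seeds, against 3.01 and 2.75 in 2n seeds, a log2 fold change of -1.97 (SE 0.24, adjusted p = 0.00025). *YUC6* rose by a log2 fold change of 0.79 (SE 0.25, adjusted p = 0.033). Against 3n seeds 0 of the 9 passed limma in any mutant, and 3 in 3n *adm*, 1 in 3n *suvh7* and 0 in 3n *peg2* had an unadjusted p under 0.05. The rank product also called 0 of the 9 in these comparisons. Over all genes it called 91 higher and 21 lower in 3n *adm* and 109 and 86 in 3n *suvh7*. In 3n *peg2* it called 13 and 72. Of AT1G34040 and AT1G34060, both annotated as pyridoxal phosphate-dependent transferases, AT1G34060 fell, with a log2 fold change of -0.45 (adjusted p = 0.0045). Of 11 tryptophan synthesis genes, which supply the substrate, 10 did not pass and 1 fell, *ASA1*, for the first committed enzyme, with a log2 fold change of -0.30 (adjusted p = 0.046). With size factors 0 of the 11 passed.

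Among 9 genes of other proposed routes to auxin 1 rose and 4 fell. In this comparison of 3n with 2n seeds, 19.5% of all genes were called higher and 25.2% lower. The nitrilases *NIT4* (-2.16), *NIT2* (-1.04) and *NIT1* (-1.01) had the 3 most negative log2 fold changes of that list in 3n against 2n seeds. *NIT1*, *NIT2* and *NIT3* are close neighbouring copies, so reads may be split among them. Of 14 genes that inactivate auxin 6 rose and 2 fell (median log2 fold change 0.09). *GH3.4*, which conjugates auxin to amino acids, had an RPKM of 1.69 and 2.56 in 3n seeds, against 0.0552 and 0 in 2n seeds (adjusted p = 1.2e-05). *UGT74D1*, an auxin glucosyltransferase, rose by 1.56 (SE 0.29, adjusted p = 0.0028). It fell in 3n *suvh7* against 3n seeds, with a log2 fold change of -1.18 (adjusted p = 0.043). *UGT84B1*, of the same kind, was the single gene of all 125 called in 3n *peg2*, with an RPKM of 4.47 and 5.17 in 3n *peg2* seeds, against 10.1 and 10.3 in 3n seeds (log2 fold change -1.07, SE 0.12, adjusted p = 0.018). Of 6 hydrolases tested that free auxin from conjugates, 4 rose in 3n against 2n seeds and none fell (median 0.62), with *ILL3* and *IAR3* at 0.88 each.

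Of 17 transport genes 5 rose and 7 fell in 3n against 2n seeds (19.5% of all genes higher, 25.2% lower). The influx carrier *AUX1* had an RPKM of 5.47 and 4.63 in 3n seeds, against 30.3 and 33.7 in 2n seeds, a log2 fold change of -2.64 (SE 0.12, adjusted p = 1.4e-06). *AUX1* was higher than in 3n seeds in both 3n *adm* (log2 fold change 1.20, adjusted p = 0.0026) and 3n *suvh7* (1.37, adjusted p = 0.00093). The efflux carrier *PIN3* rose by 1.31 in 3n seeds, and *PIN6* fell, with a log2 fold change of -1.57. Of 6 receptor genes 3 fell and none rose, *AFB1* with a log2 fold change of -1.69 and *TIR1* and *AFB2* with smaller ones (adjusted p = 0.00011 and 1.6e-05). Of 28 Aux/IAA repressor genes tested 7 rose and 3 fell, with *IAA31* at 1.76 and *IAA17* at -1.94. In 3n *suvh7* against 3n seeds the 125 genes gave 6 higher and 11 lower (4.87% and 4.27% of all genes), in 3n *adm* 7 higher and 9 lower (8.12% and 1.85% of all genes), and in 3n *peg2* 0 higher and 1 lower (0.0865% and 0.154% of all genes). The rank product called 0 of the 125 in each of these 3 comparisons. Over all genes it called 109 higher and 86 lower in 3n *suvh7* and 91 and 21 in 3n *adm*. In 3n *peg2* it called 13 and 72. With size factors the 3n *adm* counts became 4 higher and 18 lower.

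The 23 auxin response factor (*ARF*) genes, whose proteins carry out the transcriptional response to auxin, counted 9 higher and 11 lower in 3n than in 2n seeds. Of all genes 19.5% were called higher and 25.2% lower in the same comparison. *ARF11* had an RPKM of 1.64 and 1.29 in 3n seeds, against 22.5 and 22.9 in 2n seeds, a log2 fold change of -3.88 (SE 0.15, adjusted p = 6.2e-07). *ARF12* had an RPKM of 3.15 and 3.33 in 3n seeds, against 0.00793 and 0.0258 in 2n seeds, and *ARF21* had 1.95 and 2.86, against 0.0310 and 0. In 3n *suvh7* seeds *ARF12* was at 0.737 and 0.295 and *ARF21* at 0.291 and 0.318, log2 fold changes of -2.54 (adjusted p = 0.0027) and -2.61 (adjusted p = 0.00094) against 3n seeds. *ARF12*, *ARF14*, *ARF15*, *ARF20*, *ARF21* and *ARF22* are 93.6% to 96.2% identical to their nearest copy, so reads may be split among them and their single values are uncertain. In 3n *suvh7* against 3n seeds 2 *ARF* genes rose and 8 fell (4.87% of all genes higher, 4.27% lower).

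**Figure D4:**
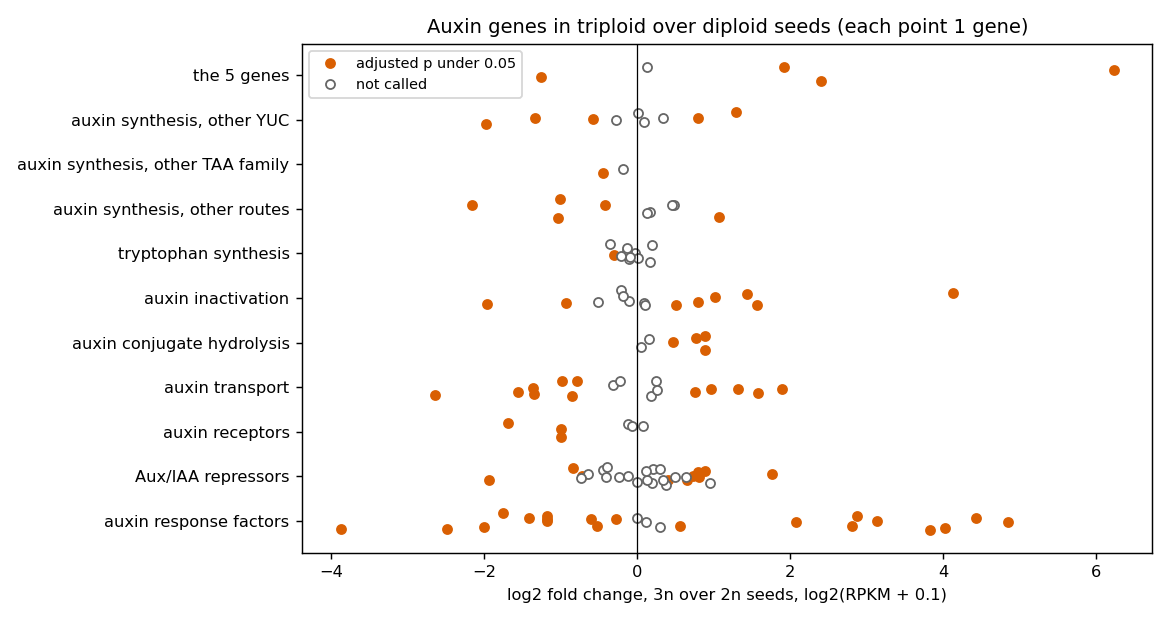
Log2 fold change of 3n over 2n seeds on the log2(RPKM + 0.1) scale (x axis) for the 5 genes and the 10 lists of other auxin genes (y axis), 1 point per gene, orange where the adjusted p is under 0.05. *TAR1* lies at 6.23, to the right of every other gene drawn, and the *ARF* genes spread between -3.88 and 4.84.

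Marker genes of seed tissues moved in the same comparisons. The summed RPKM of 10 endosperm markers was 178 to 180 in 3n *adm*, 136 to 140 in 3n *suvh7*, 150 to 154 in 3n *peg2*, 181 to 192 in 3n and 51.0 to 55.3 in 2n seeds. In 3n against 2n seeds 6 of the 10 rose and 3 fell (19.5% of all genes higher, 25.2% lower). None of the 10 was at 0 in a group. *PHE1* (log2 fold change 7.18) and *AGL62* (4.59), MADS-box genes of the early endosperm, and the imprinted *FWA* (4.87) rose, while *ZOU* (-1.29), *EDE1* (-1.11) and *ALE1* (-1.58) fell. In 3n *suvh7* against 3n seeds 1 endosperm marker rose and 4 fell (4.87% of all genes higher, 4.27% lower). Those that fell included *MINI3* (-3.04), *AGL62* (-1.65) and *FWA* (-1.10), beside the fall of *TAR1*, *YUC10* and *YUC11*. In 3n *adm* against 3n seeds *ZOU* rose by 0.60 and no endosperm marker fell (8.12% of all genes higher, 1.85% lower). In 3n *peg2* against 3n seeds limma and the rank product each called 0 of the 10, and 3 were lower at an unadjusted p under 0.05. Over all genes limma called 0.0865% higher and 0.154% lower there, and the rank product called 13 genes higher and 72 lower.

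Of 9 embryo markers 6 fell in 3n against 2n seeds and none rose, beside the fall of *TAA1*. In this comparison 19.5% of all genes were called higher and 25.2% lower. The summed RPKM of the embryo markers was 118 to 123 in 3n *adm*, 125 to 139 in 3n *suvh7*, 59.2 to 79.6 in 3n *peg2*, 63.9 to 83.8 in 3n and 145 to 152 in 2n seeds, most of it from *LEC1*. The mean embryo sum and the mean RPKM of *TAA1* were 149 and 10.7 in 2n seeds and 73.9 and 4.42 in 3n seeds. They were 132 and 5.90 in 3n *suvh7*, 121 and 3.30 in 3n *adm* and 69.4 and 3.36 in 3n *peg2*. Against 3n seeds *TAA1* did not pass limma in any of these mutants (adjusted p = 0.27, 0.24 and 0.67). Seed coat markers summed to 1688 to 1806 over all groups, which overlapped, with 5 of 9 higher and 1 lower in 3n than in 2n seeds. Pollen markers were low, at a summed RPKM of 7.94 to 8.45 in 3n *adm*, 3.24 to 3.56 in 3n *suvh7*, 3.93 to 4.21 in 3n *peg2*, 8.13 to 15.7 in 3n and 4.41 to 5.62 in 2n seeds, with 5 of 8 higher in 3n than in 2n seeds, and *MGH3* was at 0 in 3n *adm* and in 2n seeds. No embryo or seed coat marker was at 0 in a group. The part of these tissue shifts in the values of the auxin genes was not tested.

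The genes with the profile most like each of the 4 better measured genes were sought over the 10 libraries among 18383 genes averaging an RPKM of 1 or more. Pearson's r on the log2 scale is given as a description, and the 10 libraries share 5 groups of 2. *TAR1* was most like *scpl21*, which encodes a serine carboxypeptidase-like protein (r = 0.998), AT1G56620, for an invertase or pectin methylesterase inhibitor (0.998), and AT1G29110, for a cysteine proteinase (0.998). All 3 had a mean RPKM of 0.0778 or less in 2n seeds, against 2.14 to 27.4 in 3n seeds. *YUC10* was most like AT5G24316, for a proline-rich protein (r = 0.988), *AAP8*, for an amino acid permease (0.984), and AT1G30740, for a berberine family protein (0.983). *AAP8* averaged an RPKM of 20.0 in 3n seeds and 0.903 in 2n seeds. *TAA1* was most like *AMP1*, for a peptidase family protein (r = 0.992), *ERL2*, for a receptor kinase of the ERECTA family (0.988), and AT5G26850 (0.987), each highest in 2n seeds. *TAR2* was most like *BGAL9*, for a beta-galactosidase (r = 0.982), AT3G24040 (0.977) and AT5G56530 (0.976), each lowest in 3n *adm* seeds.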

How the data were processed

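RNA of seeds at 6 DAP (20 siliques per library, 2 libraries in each of 5 groups) was prepared with the TruSeq RNA kit and sequenced as paired 100-base reads. The authors trimmed low-quality ends, aligned reads with TopHat2 2.0.10 to TAIR10 allowing 1 alignment per read, and deposited 1 table of RPKM values for 33602 genes. The RPKM tool, the annotation and the strand setting are not given in the sources used here. All 10 value columns matched a sample, and 0 columns were left unused.

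Library depth was recovered from the steps of the low RPKM values, and reads per gene with the length chosen for each gene. Both mates of a pair were taken to be counted, which was not tested, and some libraries held an odd number of reads. On this assumption counting intervals were taken on read pairs, rounded down within a group. Groups were compared with limma 3.58.1 (R 4.3.3, trended prior) on log2(RPKM + 0.1) of 26601 genes above 0 in at least 2 libraries, with all 5 groups in 1 fit. P-values were Benjamini-Hochberg adjusted over all genes of a comparison and called under 0.05. The script was tested on simulated data. Alternatives were a pseudocount of 1 or 0.01, only genes averaging an RPKM of 1 or more, no filter, median-of-ratios size factors, a replicate block, only the groups compared, a rank product with 100 permutations, and leaving out each library. A crossed replicate block was chosen after seeing the data. The deposited values were used in Python 3.11.15 and transcripts were aligned with blastn 2.17.0.

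The 5 genes are described in every comparison. From each list of other genes, those called with the 3 largest changes in each direction and an average RPKM of 1 or more were named, for the 10 pathway lists and for markers of endosperm, embryo, seed coat and pollen. For each of the 5 genes averaging an RPKM of 0.5 or more, the 3 genes with the highest Pearson's r were named. A gene that this rule names in the transport list is not reported here. The genes, lists and tests were chosen with earlier results of these data known.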

Additional observations from a re-analysis of the deposited data

How the results depend on the processing

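Counts of the 5 genes called, in either direction, depended on the alternatives as follows, and the cause was not tested. With the rank product 1 gene was called in 3n against 2n (4 by limma) and 1 in 3n *peg2* against 2n (4 by limma), *TAR1* in both, and 0 in each of the other comparisons. Over all genes the rank product called at most 158 higher (3n *adm* against 2n) and 141 lower (3n *peg2* against 2n) in any comparison. With only the groups compared in the fit, 0 genes were called in 3n *adm* against 3n (1 with all groups), 3n *suvh7* against 3n (3), 3n *suvh7* against 3n *adm* (2) and 3n *peg2* against 3n *suvh7* (4). In 3n *adm* against 3n, 2 genes were called with a pseudocount of 1, 3 among genes averaging an RPKM of 1 or more and 3 with size factors. Single calls were also lost without moving a count past 1.5 times. *TAA1* in 3n *peg2* against 3n *suvh7* was lost with a pseudocount of 1, no filter, size factors or the replicate block, which left 3 of 4 calls. *TAR1* was lost with a pseudocount of 0.01 in 3n *suvh7* (adjusted p = 0.086) and in 3n *peg2* (0.27) against 3n *adm*, while *YUC11* in 3n *suvh7* against 3n *adm* passed with it (0.034). *YUC11* in 3n *adm* against 2n was lost with a pseudocount of 1 (0.14) and with only the groups compared (0.064), as was *TAA1* in 3n *suvh7* against 2n (0.063) and *YUC10* in 3n *peg2* against 3n *adm* (0.093) with only the groups compared. *TAR2* in 3n *adm* against 2n passed with only the groups compared (0.014) and among genes averaging an RPKM of 1 or more (0.037).

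Same-numbered libraries did not deviate alike across all groups, which does not exclude a pairing between some of them. Deviations from the group means of same-numbered libraries correlated between groups with r of -0.20 to 0.24. With the replicate block 1 gene was called in 3n *suvh7* against 3n *adm* and 1 in 3n *peg2* against 3n *adm*, against 2 and 3 without it. The crossed block was chosen after seeing the data for 3 pairs of groups with r below -0.1. With it, 0 genes were called in 3n *suvh7* against 2n, against 3 in the fit of all groups. The adjusted p was 0.052 for *TAA1*, 0.051 for *TAR1* and 0.057 for *YUC10*. With only the groups compared and no block, *TAA1* was also lost (adjusted p = 0.063), while *TAR1* and *YUC10* still passed. The loss of *TAA1* was therefore not specific to the crossed block.

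Leaving out each of the 10 libraries gave 4 to 4 calls in 3n against 2n and in 3n *peg2* against 2n, 1 to 2 in 3n *adm* against 3n, 2 to 3 in 3n *suvh7* against 3n and against 2n, 0 to 0 in 3n *peg2* against 3n, 3 to 5 in 3n *adm* against 2n, 0 to 3 in 3n *suvh7* and in 3n *peg2* against 3n *adm*, and 1 to 4 in 3n *peg2* against 3n *suvh7*. Of values that did not pass, these log2 fold changes changed sign: *TAR2* in 3n against 2n (-0.13 to 0.38), in 3n *suvh7* against 3n (-0.45 to 0.060), in 3n *suvh7* against 2n (-0.30 to 0.15, and 0.024 with size factors) and in 3n *peg2* against 3n (-0.17 to 0.34). The others were *TAR1* (-0.22 to 0.24) and *YUC11* (-0.32 to 0.65) in 3n *peg2* against 3n, *YUC11* in 3n *suvh7* against 2n (-0.18 to 0.054) and *TAA1* in 3n *peg2* against 3n *adm* (-0.16 to 0.19). *YUC11* was too low for a value among genes averaging an RPKM of 1 or more. Its log2 fold change moved with the pseudocount, between 0.47 and 3.20 in 3n against 2n and between -3.36 and -0.48 in 3n *suvh7* against 3n.

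Over all genes tested, fits of only the 2 groups called 0 genes in 3n *adm*, 3n *suvh7* and 3n *peg2* against 3n, in 3n *suvh7* against 3n *adm* and in 3n *peg2* against 3n *suvh7*, where fits of all groups called 2654, 2432, 64, 3316 and 2418. In 3n *suvh7* against 2n the crossed block called 1163, against 9648 with all groups in the fit. A fit of only these 2 groups, without a block, called 2478 higher and 4777 lower. In 3n *suvh7* against 3n *adm*, 6 genes were called without replicate 1 of 3n *adm* and 50 without its replicate 2, against 3316. In 3n *adm* against 3n they were 352 and 465, against 2654, and in 3n *peg2* against 3n *adm* 838 and 1125, against 5064. In 3n *peg2* against 3n the count was 18 to 101 without 1 library, against 64, and 37 with the replicate block, 0 with the crossed block and 108 with a pseudocount of 1. The rank product called 146 genes higher and 128 lower in 3n against 2n, and 13 and 72 in 3n *peg2* against 3n.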
